A study of Mus musculus with 2 samples.

Results

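The 40 genes described here encode the machinery of macroautophagy, and they were taken by gene symbol from a fixed list. All 40 symbols had 1 protein-coding entry each among the 22028 protein-coding genes and 55536 gene entries of the deposited tables. They were measured by RNA-seq of polyadenylated RNA in primary macrophages grown from the bone marrow of C57BL/6J mice. Both libraries belong to the only group: Lipid A at 100 ng/mL for 12 hours, a washout of 12 hours, and Lipid A at 100 ng/mL again for 30 minutes. Lipid A is the lipid anchor of lipopolysaccharide and the ligand of Tlr4. That name comes from the description label, whereas the treatment and source labels call the agent lipoprotein A, and which was used is unclear. The libraries are biological replicates 2 and 1, from separate biosamples under a single donor record, with sex and age not collected. No untreated or once-stimulated library was analysed here, so nothing below describes a response to the stimulus, and with 1 library on each side no difference between the libraries has a replicate check or a test.

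Macroautophagy wraps a portion of cytoplasm in a double membrane and delivers it to the lysosome. The ULK1 kinase complex starts the process, the class III phosphatidylinositol 3-kinase (PI3-kinase) complex marks the membrane with its lipid, and ATG9, ATG2 and the WIPI proteins bring and transfer lipid to the growing membrane. A conjugation cascade like that of ubiquitin then couples LC3 and GABARAP proteins to the membrane, where they dock cargo receptors such as p62, the product of Sqstm1. In macrophages the pathway is known for the removal of intracellular bacteria, damaged mitochondria and protein aggregates, and for limiting inflammasome activity.

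The libraries held 30780681 (replicate 2) and 41938419 (replicate 1) expected counts on genes, so that 0 counts allow up to 0.0975 and 0.0715 CPM (counts scaled to library size) at 3 counts per library. All 8 macrophage markers were detected, with medians of 559 TPM in replicate 2 and 683 TPM in replicate 1. Of 9 neutrophil markers 2 were detected, with sums over the list of 9.88 TPM in replicate 2 and 75.3 TPM in replicate 1, and Ly6g was at 0 in both. All 7 stromal markers were detected, with sums of 650 TPM in replicate 2 and 573 TPM in replicate 1. A further list of 14 early response genes, which Tlr4 signalling switches on within minutes, summed to 4926 TPM in replicate 2 and 2269 TPM in replicate 1. In such bulk samples, fewer cells of a type and less RNA per cell cannot be told apart.

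Transcripts of nearly the whole pathway were present. At a threshold of 1 TPM (a share of all transcripts, corrected for their length) in both libraries, 39 of the 40 genes were detected, against 48.7% of all protein-coding genes, and 30 of them (75%) reached 10 TPM in both, against 30.3%. Their median level stood at 19.4 TPM in replicate 2 and 17.9 TPM in replicate 1. The median of the 10727 detected protein-coding genes was close to that, at 16.4 TPM in replicate 2 and 17.5 TPM in replicate 1. Gabarap and Sqstm1 stood far above the others: they were the only 2 members at 100 TPM or more in both libraries (5% of members, against 5.56% of protein-coding genes), and they held 61.3% (replicate 2) and 59.9% (replicate 1) of the TPM summed over all 40 genes. The remaining 38 genes lay below 98 TPM.

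**Figure D1:**
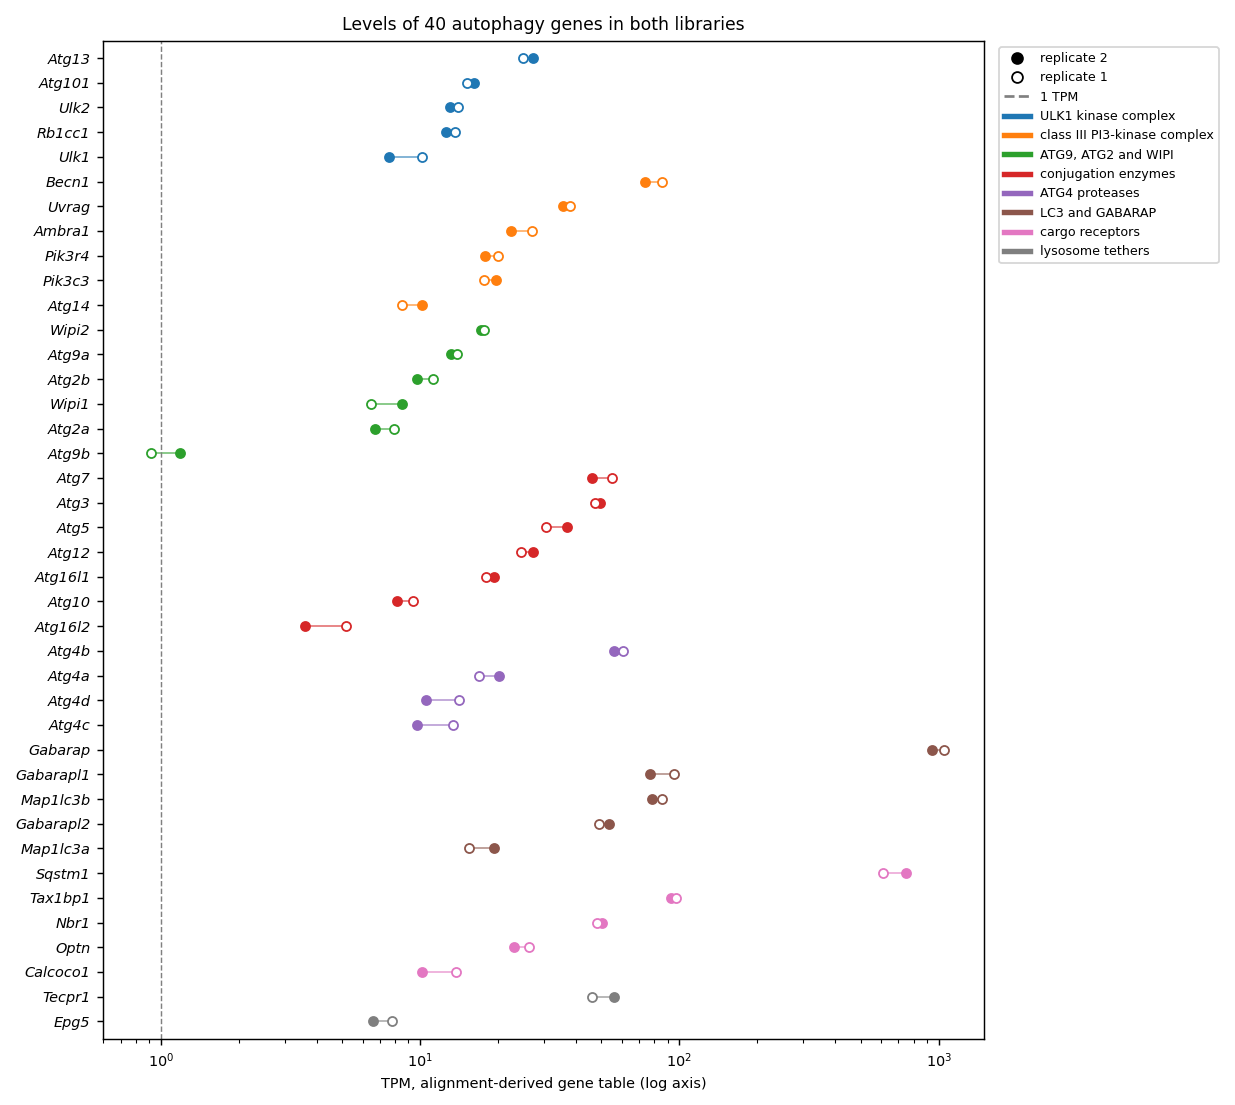
Level of each of the 40 genes in TPM on a log axis, ordered within its role, with filled points for replicate 2 and open points for replicate 1. Gabarap and Sqstm1 lie to the right of all others in both libraries, and Atg9b straddles the dashed line at 1 TPM.

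Levels differed little between the libraries, as they did for most detected genes. Ratios were taken as replicate 2 over replicate 1 on library-scaled counts, with exact 95% intervals that cover counting error only. None of the 40 genes was 2-fold apart, against 2.46% of the 12471 genes with at least 20 counts in each library (1.94% at least 2-fold higher in replicate 2 and 0.521% at least 2-fold lower). Of detected protein-coding genes with that many counts, 154 of 10680 were 2-fold apart in either direction. The log2 ratio was above 0 for 19 genes and below 0 for 21, with a median of -0.02, equal to that of all 12471 genes. All but Atg9b (39 of 40, or 97.5%) lay within 0.5 on the log2 scale, against 86.9% of all genes and 90.9% of detected protein-coding genes. The median distance from 0 was 0.17, against 0.20 for all genes and 0.18 for detected protein-coding genes.

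The largest difference was that of Atg9b, the less widely expressed ATG9 paralogue, with a log2 ratio of 0.97 (0.46 to 1.5) on 79 counts in replicate 2 and 55 in replicate 1. Wipi1, a reader of the PI3-kinase's lipid, followed at 0.43 (0.23 to 0.64), with 379 counts in replicate 2 and 384 in replicate 1. The lowest ratios were -0.42 (-0.57 to -0.26) for the protease gene Atg4c, -0.38 (-0.54 to -0.23) for the cargo receptor gene Calcoco1 and -0.37 (-0.50 to -0.24) for the kinase gene Ulk1. The interval excluded 0 for 28 genes (70%), 14 on each side, against 54.5% of the 12471 genes. Intervals narrow with the count and leave out the variation between cultures, which a pair of libraries cannot give.

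**Figure D2:**
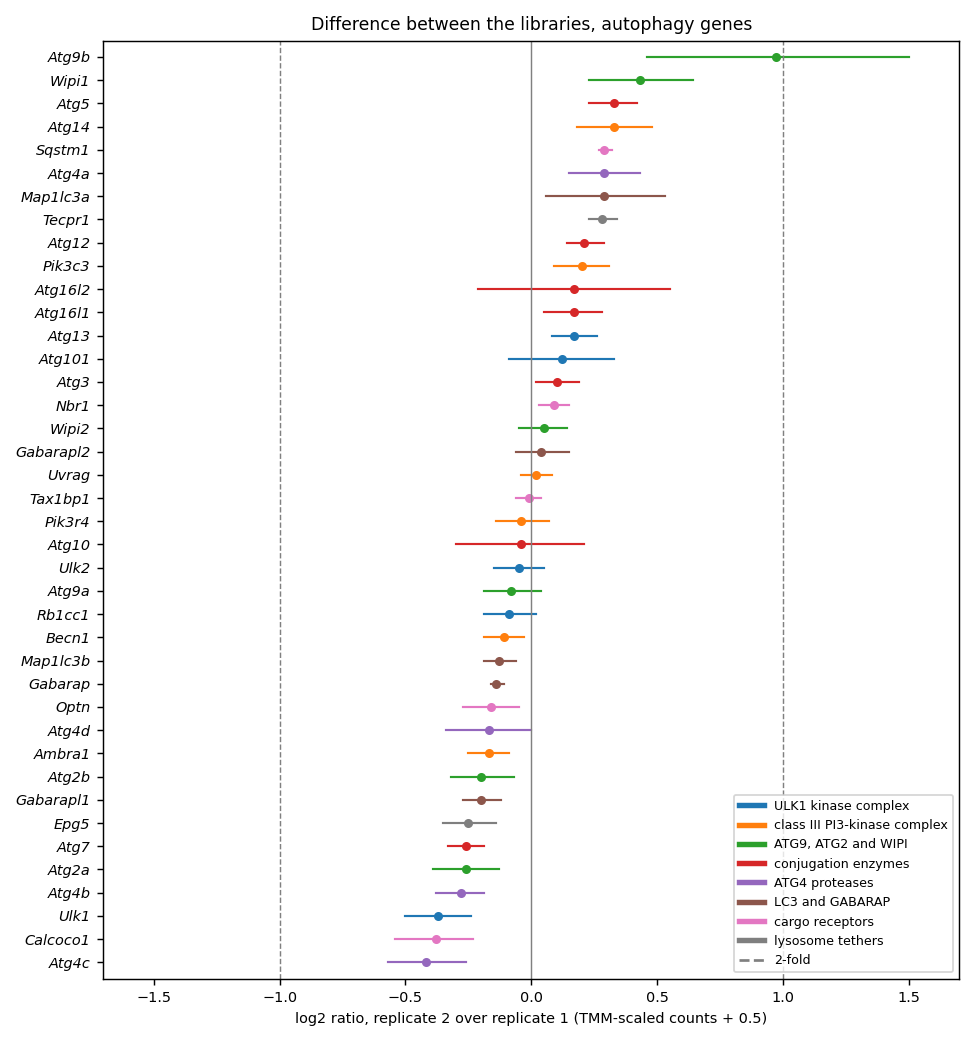
Log2 ratio of replicate 2 over replicate 1 for each gene, from the highest at the top, with exact 95% intervals for counting error as lines and colours for roles. All points lie between the dashed 2-fold lines, from -0.42 for Atg4c to 0.97 for Atg9b, whose interval alone crosses one of them.

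The early response genes stood apart from this. All 14 had a higher scaled count in replicate 2, and 11 of them at least 2-fold, against 1.94% of all genes, with a median log2 ratio of 1.26. This list, like the others, was chosen with earlier results of these data known, so the comparison with all genes describes it and tests nothing. The inflammatory cytokine gene Tnf had 1198 TPM in replicate 2 and 451 TPM in replicate 1. Over the same libraries the neutrophil marker S100a9 had a log2 ratio of -2.94, at 5.28 TPM in replicate 2 and 40 TPM in replicate 1, and the 7 stromal markers had a median log2 ratio of 0.27. The part of these differences in the ratios of the autophagy genes was not tested.

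**Figure D3:**
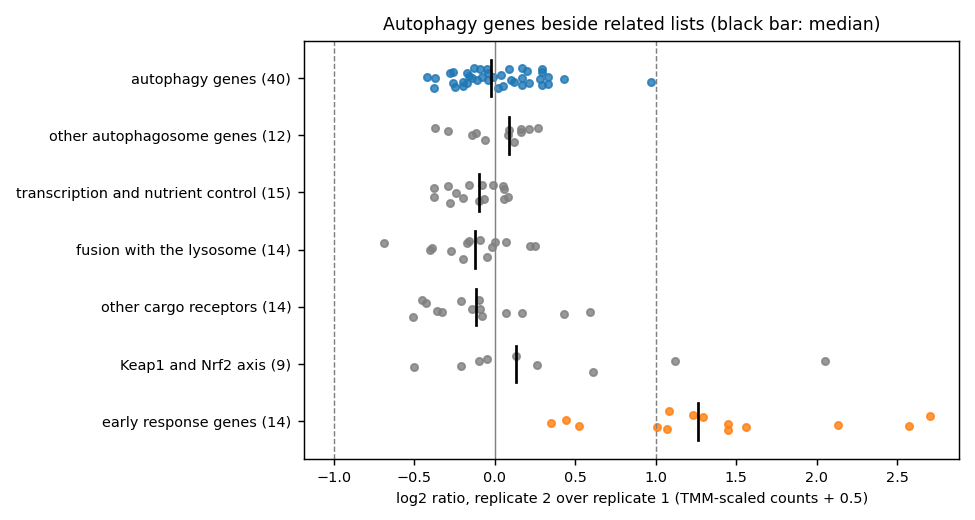
Log2 ratio of replicate 2 over replicate 1 for the autophagy genes (top row) and 6 related lists, 1 point per gene with at least 20 counts in each library, and a black bar at the median. The autophagy genes centre on -0.02, while the early response genes centre on 1.26. The lists were chosen with earlier results of these data known.

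The gene level did not show which transcript it came from. GENCODE annotates 3 classes of transcript of these genes that give no full protein: retained intron, processed transcript, and nonsense-mediated decay, in which a stop codon lies ahead of a later splice junction. Their summed share of a gene's TPM, called the noncoding share below, was read from the FASTQ-derived transcript table for the 30 genes at 10 TPM or more. The median was 8.07% for these 30 genes and 2.60% for the 6671 protein-coding genes at that level. The share was above 25% in 8 of the 30 genes (26.7%), against 13.2% of protein-coding genes, and above 50% in 3 of the 30, against 5.13%. The values moved with the table and the unit: in the alignment-derived transcript table the median was 3.45% against 1.81% for protein-coding genes, with 7 of 30 genes above 25% (23.3%, against 14.0%), and as a share of estimated counts it was 1.89% against 0.973%, with 5 of 30 (16.7%, against 7.11%). The FASTQ-derived median was 3.25% in replicate 1 alone, so it rests on replicate 2. A share of TPM gives a short transcript more weight than a share of counts does. Above 25% in both tables were 6 of the 30 genes (20%, against 11% of protein-coding genes), and 4 of these also by counts (13.3%, against 6.06%).

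**Figure D4:**
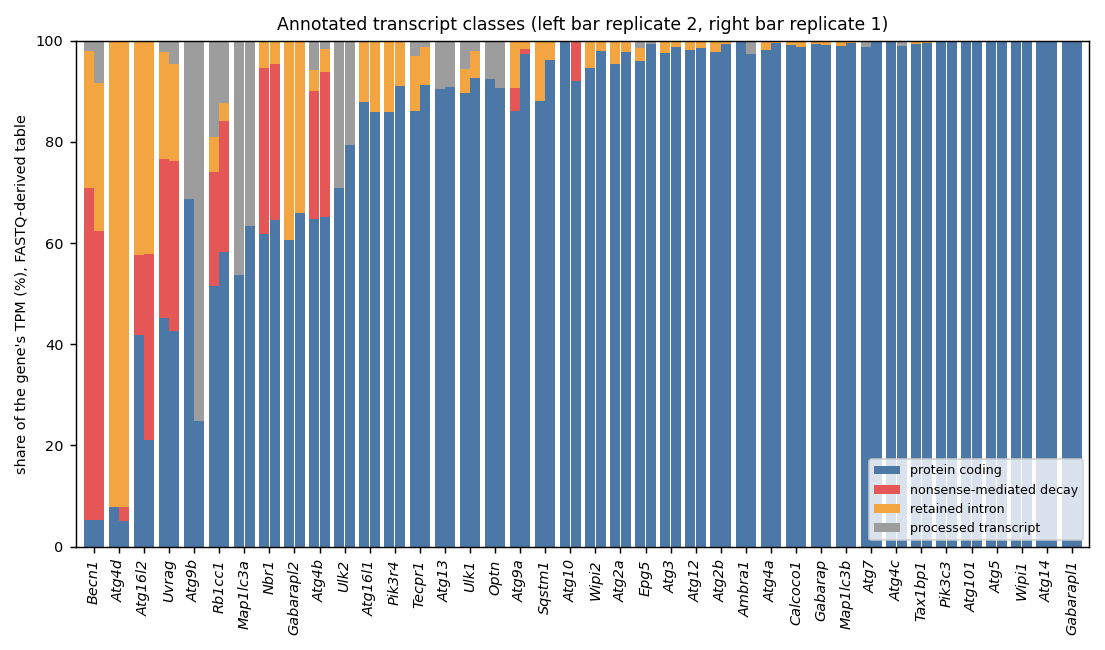
Share of each gene's TPM in the 4 annotated transcript classes, from the FASTQ-derived table, with replicate 2 as the left bar and replicate 1 as the right bar of each pair, ordered by noncoding share. Becn1 and Atg4d are almost wholly noncoding by annotation in both libraries, whereas Atg9b, with under 100 counts a library, differs widely between its bars.

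**Figure D5:**
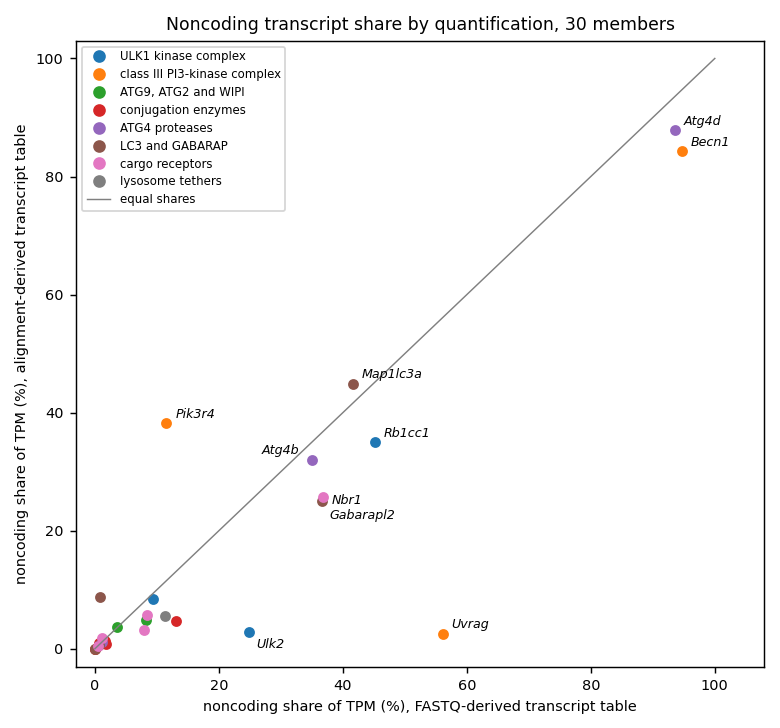
Noncoding share of TPM, as the mean of both libraries, in the alignment-derived table against the FASTQ-derived table for the 30 genes at 10 TPM or more, with the line of equal shares. Becn1 and Atg4d are high in both tables, while Uvrag is above 50% in one and below 4% in the other.

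The ULK1 kinase complex passes nutrient and stress signals to the autophagy machinery. Its 5 genes were at modest levels. Atg13, the adaptor subunit, was highest, at 27.2 TPM in replicate 2 and 25 TPM in replicate 1. Ulk1, the kinase that names the complex, was lowest, at 7.58 TPM in replicate 2 and 10.2 TPM in replicate 1, and its paralogue Ulk2 exceeded it by 1.71-fold in replicate 2 and 1.38-fold in replicate 1. Between these lay Atg101, which stabilises Atg13, and Rb1cc1, the scaffold also called FIP200, at 12.6 TPM in replicate 2 and 13.6 TPM in replicate 1. No transcript of Rb1cc1 reached 50% of its TPM in either table. In the FASTQ-derived table the main coding transcript, Rb1cc1-212, held 21.2% of TPM in replicate 2 and 24.2% in replicate 1, and the nonsense-mediated decay transcript Rb1cc1-214 held 22.6% in replicate 2 and 25.9% in replicate 1. The share of the coding transcript Rb1cc1-201 was 10.5% in replicate 2 and 8.04% in replicate 1 in that table. In the alignment-derived table Rb1cc1-201 held 35.3% in replicate 2 and 26.6% in replicate 1, and Rb1cc1-212 held 19.8% in replicate 2 and 28.6% in replicate 1, so their order there differed between the libraries.

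Becn1, which encodes Beclin 1, the regulatory core of the class III PI3-kinase complex, was the most abundant of that complex at the gene level. It reached 74.0 TPM in replicate 2 and 85.4 TPM in replicate 1 (79.7 ± 8.05, mean and SD, n = 2). The catalytic subunit gene Pik3c3 was at 19.6 TPM in replicate 2 and 17.7 TPM in replicate 1, so that Becn1 exceeded it by 3.77-fold in replicate 2 and 4.81-fold in replicate 1. Over coding transcripts alone the order was the opposite: Becn1 over Pik3c3 was 0.602 in replicate 2 and 0.747 in replicate 1 in the alignment-derived table, and 0.178 in replicate 2 and 0.254 in replicate 1 in the FASTQ-derived table.

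Becn1 lies on the minus strand of chromosome 11 (mm10, 101285952 to 101302286). Its noncoding share was 94.8% in replicate 2 and 94.7% in replicate 1 in the FASTQ-derived table, and 84.1% in replicate 2 and 84.5% in replicate 1 in the alignment-derived table. The leading transcript was Becn1-201, annotated for nonsense-mediated decay, with 42.7% of TPM in replicate 2 and 39.2% in replicate 1. The coding transcript Becn1-205 held 5.24% in replicate 2 and 5% in replicate 1 (10.5% and 10.7% in the alignment-derived table). By estimated counts Becn1-205 held more, 13.3% in replicate 2 and 14.1% in replicate 1, and Becn1-201 held 49.2% and 50.8%. Becn1-201 differs from Becn1-205 inside the coding region by 2 extra stretches, of 64 and 4 bases. The longer one, chr11:101296194-101296257, extends an exon into the intron that follows, and its last 3 bases, TAG, end the annotated coding sequence of Becn1-201 after 105 codons, against 448 codons in Becn1-205. It is printed because it sets the leading Becn1 transcript apart from the coding one, with the last 30 bases of the exon that both transcripts share in lower case and, in capitals, the extension in Becn1-201 and the start of the next exon in Becn1-205.
Becn1-201: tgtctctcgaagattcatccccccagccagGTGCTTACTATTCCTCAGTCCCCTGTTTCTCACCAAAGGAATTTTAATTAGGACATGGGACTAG
Becn1-205: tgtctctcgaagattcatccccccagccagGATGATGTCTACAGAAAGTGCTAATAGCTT
Apart from these stretches and the ends, the transcripts overlap almost fully. Becn1-201 is 2123 bases long and 96.8% of it lies in Becn1-205, all 1344 coding bases included. Becn1-205 is 4365 bases long, of which 2864 follow the coding sequence, and Becn1-201 shares 554 of those. Reads from the shared bases fit both transcripts, so the deposited split between them rests on the bases and junctions that differ. A further noncoding transcript, Becn1-215, at 21.5% of TPM in replicate 2 and 17.1% in replicate 1, lies wholly within the exons of Becn1-205. The retained-intron transcript Becn1-202 held 22.8% of estimated counts in replicate 2 and 19.5% in replicate 1. It too contains all 1344 coding bases. By exon bases 43.9% of Becn1 also overlaps Cntd1 on the opposite strand, which stood at 0.10 TPM in replicate 2 and 0.02 TPM in replicate 1.

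Of the other PI3-kinase genes, Uvrag, whose product joins the complex on endosomes and in late steps, was at 35.6 TPM in replicate 2 and 37.7 TPM in replicate 1. Atg14, whose product directs the complex to the site of autophagosome formation, was the lowest, at 10.2 TPM in replicate 2 and 8.48 TPM in replicate 1. Uvrag thus exceeded Atg14 by 3.48-fold in replicate 2 and 4.45-fold in replicate 1, and over coding transcripts by between 2.26 and 4.27-fold in the libraries of both tables. The noncoding share of Uvrag was 54.8% in replicate 2 and 57.4% in replicate 1 in the FASTQ-derived table, but 1.21% in replicate 2 and 3.95% in replicate 1 in the alignment-derived one, where Uvrag-201 held 98.8% in replicate 2 and 96.1% in replicate 1. Pik3r4, the regulatory kinase-like subunit, and Ambra1, a scaffold that binds Beclin 1, had means of 18.9 ± 1.44 and 24.8 ± 3.24 TPM (SD, n = 2). For Pik3r4 the tables differed the other way. Its noncoding share was 14.1% in replicate 2 and 8.95% in replicate 1 in the FASTQ-derived table, but 39.8% and 36.7% in the alignment-derived one.

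Genes for the membrane source and lipid transfer had the lowest median level of any role. Wipi2, the WIPI protein that recruits ATG16L1, was highest, at 17.2 TPM in replicate 2 and 17.7 TPM in replicate 1, and exceeded Wipi1 by 2.03-fold in replicate 2 and 2.73-fold in replicate 1. The size of this fold is loosely set. The deposited bounds on TPM were 7.43 to 14.5 in replicate 2 and 5.78 to 10.3 in replicate 1 for Wipi1. For Wipi2 they were 15.3 to 17.9 and 15.9 to 18.3. The lipid scramblase gene Atg9a was at 13.1 TPM in replicate 2 and 13.9 TPM in replicate 1. Its paralogue Atg9b was the only member under the detection threshold, at 1.19 TPM in replicate 2 and 0.92 TPM in replicate 1, so Atg9a exceeded it by 11.0-fold in replicate 2 and 15.1-fold in replicate 1. Of the 31-base stretches of the main Atg9a transcript, 45.2% also occur in other genes, most of them in Gm29253. That gene lies on the same strand and stood at 0.10 TPM in replicate 2 and 0.06 TPM in replicate 1. The division of reads between Atg9a and Gm29253 is uncertain. Atg2a and Atg2b, which encode lipid transfer proteins, had means of 7.31 ± 0.856 and 10.5 ± 1.09 TPM (SD, n = 2).

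The conjugation genes reached higher levels than those for lipid transfer. Atg7, the E1-like enzyme that activates both ubiquitin-like proteins of the pathway, was highest, at 45.9 TPM in replicate 2 and 55.0 TPM in replicate 1. Atg3, the E2-like enzyme for LC3, was close to it at 49.2 TPM in replicate 2 and 47.3 TPM in replicate 1, and the order of the pair differed between the libraries. Atg10, the E2-like enzyme for ATG12, was at 8.17 TPM in replicate 2 and 9.43 TPM in replicate 1, and Atg7 exceeded it by 5.62-fold in replicate 2 and 5.83-fold in replicate 1. The Atg7 level was spread over several coding transcripts, of which Atg7-201 held 37.4% in replicate 2 and 35.7% in replicate 1 and Atg7-210 held 31.2% in replicate 2 and 28.8% in replicate 1, both with 698 codons.

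ATG5, ATG12 and ATG16L1 form the complex that places LC3 on the membrane. Atg5 and Atg12 had means of 33.7 ± 4.56 and 25.9 ± 1.96 TPM, and Atg16l1 one of 18.6 ± 0.87 TPM (SD, n = 2 each). Atg16l2, the paralogue of Atg16l1, was the lowest detected member by TPM, at 3.61 TPM in replicate 2 and 5.19 TPM in replicate 1. Its deposited bounds were 4.6 to 9.37 TPM in replicate 2, above the TPM itself, and 5.02 to 9.69 in replicate 1. They overlap those of Epg5 (5.92 to 7.24 and 7.27 to 8.27), so this rank is uncertain. The scaled count of Atg16l2 was higher in replicate 2 (log2 ratio 0.17, interval -0.21 to 0.55) although its TPM was lower there. The noncoding share of Atg16l2 was 58.1% of TPM in replicate 2 and 78.9% in replicate 1, made up of different short transcripts in the libraries: Atg16l2-204, a retained intron, held 27.6% in replicate 2 and 0% in replicate 1. Uvrag and Wipi2 were the only other members whose ratio of TPM and ratio of counts lay on opposite sides of equality.

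The stretch upstream of Atg3 held the fullest form of a motif tied to this pathway and is printed for that reason. TFEB, TFE3 and MITF, transcription factors of autophagy and lysosome genes, bind E-boxes of the letters CACGTG, often in the extended form TCACGTGA. Promoters of 300 bases (250 before to 50 after the RefSeq start) were found by symbol for 33 of the 40 genes. On either strand, CACGTG stood in 4 of these (Atg3, Atg5, Atg7 and Atg14), or 12.1%, against 12.2% of 8548 detected protein-coding genes and 8.09% of all 27025 genes with a promoter. The matches of Atg3 and Atg5 lie upstream of every annotated start of the gene. Those of Atg7 and Atg14 lie inside the gene as GENCODE annotates it. The shares of other genes were not split in this way. The extended form, which contains the shorter one, stood in Atg3 alone (3.03%, against 2.39% and 1.12%). The 206 bases upstream of every annotated Atg3 start (GRCm38.p6, chr16:45158579-45158784, plus strand, RefSeq) carry both matches, in capitals.
Atg3 upstream: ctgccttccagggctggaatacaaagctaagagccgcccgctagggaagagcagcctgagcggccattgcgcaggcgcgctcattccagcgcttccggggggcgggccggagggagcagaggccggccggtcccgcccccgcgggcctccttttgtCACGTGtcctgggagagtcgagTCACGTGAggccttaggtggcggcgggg
The antioxidant response core TGACNNNGC stood in 4 of 33 promoters (12.1%, against 17.1% of detected and 14.0% of all genes), and AP-1 sites of the letters TGANTCA in 0 of 33 (against 6.08% and 8.97%). GC boxes of the letters GGGCGG stood in 23 of 33 (69.7%, against 69.9% and 38.2%), and the median GC content was 60.8% for members and for detected genes, against 52.7% for all genes. A match describes these letters and shows neither a bound site nor a cause of any level.

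ATG4 proteases trim LC3 and GABARAP proteins before conjugation and release them afterwards. Atg4b, the main such protease, was highest, at 56.2 TPM in replicate 2 and 60.5 TPM in replicate 1, and Atg4c lowest, at 9.69 TPM in replicate 2 and 13.4 TPM in replicate 1. The main coding transcript Atg4b-201, with 393 codons, held 24.5% of Atg4b TPM in replicate 2 and 26.5% in replicate 1, while the nonsense-mediated decay transcript Atg4b-204, with 143 codons, held 24.6% in replicate 2 and 28.3% in replicate 1. Atg4a had a mean of 18.5 ± 2.32 TPM (SD, n = 2), and 74.9% of the 31-base stretches of its main transcript also occur in the annotated gene Atg4a-ps, at 0.10 TPM in replicate 2 and 0.22 TPM in replicate 1, so the division of reads between them is uncertain.

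Atg4d, on the plus strand of chromosome 9 (mm10, 21265293 to 21277772), was at 10.5 TPM in replicate 2 and 14.1 TPM in replicate 1. Little of its TPM was given to its coding transcript: Atg4d-201 held 7.88% in replicate 2 and 5.06% in replicate 1 (14.7% and 9.63% in the alignment-derived table). At 5951 bases Atg4d-201 is the longest transcript of the gene, and by estimated counts it held more, 25.3% in replicate 2 and 17.7% in replicate 1. Atg4d-203, annotated as retained intron, held 63.7% in replicate 2 and 63.2% in replicate 1 in the FASTQ-derived table, and 62.6% in replicate 2 and 62.2% in replicate 1 in the alignment-derived one. It keeps intron 4 of the 9 introns of Atg4d-201, a stretch of 77 bases at chr9:21268528-21268604, and has a further exon of 125 bases. Neither length is a multiple of 3. The intron is printed in capitals between 30 bases of exon on each side, and below it the spliced junction of Atg4d-201, with the first 30 bases of the next exon in capitals.
Atg4d-203: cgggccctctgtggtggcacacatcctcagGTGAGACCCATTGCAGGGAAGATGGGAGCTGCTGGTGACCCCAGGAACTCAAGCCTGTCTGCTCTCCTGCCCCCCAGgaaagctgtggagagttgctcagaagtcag
Atg4d-201: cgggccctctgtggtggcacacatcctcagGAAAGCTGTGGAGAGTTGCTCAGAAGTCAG
Atg4d-203, at 2123 bases, contains all 1422 coding bases of Atg4d-201 and 312 of the 4339 bases that follow them. Here too the deposited split rests on what differs between the transcripts. Exons of Kri1, on the opposite strand, cover 19.3% of the exon bases of Atg4d, and Kri1 stood at 24.5 TPM in replicate 2 and 32.8 TPM in replicate 1. The strand setting of the counting is unknown, so the assignment of reads in that overlap is uncertain.

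LC3 and GABARAP proteins are the ubiquitin-like tags of the autophagosome membrane, and Gabarap RNA dominated the 5 genes measured. Gabarap, on chromosome 11 (mm10, 69991143 to 69994951, plus strand), was at 939 TPM in replicate 2 and 1050 TPM in replicate 1, which placed it at rank 100 of all protein-coding genes by mean TPM. It held 80.5% of the summed TPM of the 5 genes in replicate 2 and 81.1% in replicate 1. In the FASTQ-derived table this share was 75.0% in replicate 2 and 75.5% in replicate 1, and by expected counts it averaged 69.4%. Gabarap exceeded Map1lc3b, the gene of the LC3B protein used as the standard autophagosome marker, by 12.0-fold in replicate 2 and 12.3-fold in replicate 1, or by 7.87-fold and 7.98-fold in the FASTQ-derived table.

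Map1lc3b was at 78.2 TPM in replicate 2 and 85.5 TPM in replicate 1. Gabarapl1 was at 77.3 TPM in replicate 2 and 95.5 TPM in replicate 1, and its ratio to Map1lc3b fell on either side of 1, at 0.989 in replicate 2 and 1.12 in replicate 1, so the order of this pair is not settled by these libraries. Gabarapl2, also known as GATE-16, followed at 53.3 TPM in replicate 2 and 49.0 TPM in replicate 1. Map1lc3a, which encodes LC3A, was lowest, at 19.2 TPM in replicate 2 and 15.5 TPM in replicate 1. The log2 ratios of the 5 genes lay between -0.20 for Gabarapl1 and 0.29 for Map1lc3a.

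Their transcripts differed in class. Gabarap and Map1lc3b were almost wholly coding in the FASTQ-derived table, and the 2 main transcripts of Map1lc3b, Map1lc3b-201 with 125 codons and Map1lc3b-205 with 160, held 63.6% and 35.4% in replicate 2 and 66.2% and 33.3% in replicate 1. In the alignment-derived table Map1lc3b-201 held 85.3% in replicate 2 and 90.1% in replicate 1, and Map1lc3b-205 held 13.7% and 9.51%. The alignment-derived table gave 8.73% of Gabarap TPM in replicate 2 and 8.45% in replicate 1 to the retained-intron transcript Gabarap-204, against 0.499% and 0.576% in the FASTQ-derived one, and 55.9% and 56.4% to Gabarap-201, against 91.9% and 92.5%. Map1lc3a was given 46.4% of its TPM in replicate 2 and 34.7% in replicate 1 as the processed transcript Map1lc3a-203. For Gabarapl2 the retained-intron transcript Gabarapl2-203 took 39.3% in replicate 2 and 34.1% in replicate 1, although it contains none of the 3 introns of the coding transcript in full. Of the 31-base stretches of the main coding transcript, 21.3% for Gabarapl2, 19.5% for Gabarapl1 and 17.3% for Map1lc3b also occur in other genes. Most of those of Gabarapl2 occur in the pseudogene Gm3724, at 1.11 TPM in replicate 2 and 1.55 TPM in replicate 1. Most of those of Map1lc3b occur in the pseudogene Gm6055, at 0.78 TPM in replicate 2 and 0.61 TPM in replicate 1.

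Among cargo receptors, which bind ubiquitin or other labels on cargo and LC3 or GABARAP on the membrane, Sqstm1 stood alone. Sqstm1, on chromosome 11 (mm10, 50199366 to 50210827, minus strand), encodes p62 and was at 749 TPM in replicate 2 and 611 TPM in replicate 1 (680 ± 97.5, SD, n = 2), with a log2 ratio of 0.29 (0.27 to 0.32). It exceeded Tax1bp1, the next receptor, by 8.07-fold in replicate 2 and 6.29-fold in replicate 1. Gabarap was above Sqstm1 in both libraries of the alignment-derived table and in replicate 1 of the FASTQ-derived table, and Sqstm1 was above Gabarap in replicate 2 of the FASTQ-derived table. The level of Sqstm1 over that of Gabarap was 0.797 in replicate 2 and 0.582 in replicate 1 in the alignment-derived table, and 1.07 in replicate 2 and 0.738 in replicate 1 in the FASTQ-derived table. The transcript Sqstm1-202 held 84.8% of Sqstm1 TPM in replicate 2 and 92.9% in replicate 1, and 3 short retained-intron transcripts took more in replicate 2, among them Sqstm1-203 with 6.90% in replicate 2 and 2.84% in replicate 1.

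The sequence upstream of Sqstm1 is shown because it is the member with both a high level and a match to the NF-kB consensus, the motif of the factors that Tlr4 activates. That consensus stood in 3 of the 33 promoters (Sqstm1, Tax1bp1 and Atg16l2), or 9.09%, against 6.21% of detected protein-coding genes and 5.14% of all genes. Only the Sqstm1 match lies upstream of every annotated start of its gene. Those of Tax1bp1 and Atg16l2 lie inside the gene as GENCODE annotates it. The 243 bases upstream of every annotated Sqstm1 start (GRCm38.p6, chr11:50210828-50211070, minus strand, RefSeq) are given 5′ to 3′, with the match in capitals.
Sqstm1 upstream: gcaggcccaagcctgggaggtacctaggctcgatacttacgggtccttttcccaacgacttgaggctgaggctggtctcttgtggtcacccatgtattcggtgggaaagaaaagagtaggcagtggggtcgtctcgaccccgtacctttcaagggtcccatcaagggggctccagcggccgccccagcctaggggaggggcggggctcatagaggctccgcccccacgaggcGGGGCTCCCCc
Of the members with a match, Sqstm1 and Atg16l2 had log2 ratios of 0.29 and 0.17 and Tax1bp1 one of -0.01, all within the range of the other members. Both libraries had the same treatment, so these ratios cannot show whether the motif has an effect, which was not tested.

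The remaining receptors were far lower than Sqstm1. Tax1bp1, a receptor for protein aggregates and bacteria, was at 92.8 TPM in replicate 2 and 97.1 TPM in replicate 1. Nbr1, a relative of p62, was at 50.3 TPM in replicate 2 and 48.0 TPM in replicate 1. Optn, which encodes optineurin, a receptor for mitochondria and bacteria, was at 23.0 TPM in replicate 2 and 26.3 TPM in replicate 1. Calcoco1, a receptor for the endoplasmic reticulum and the Golgi, was lowest, at 10.2 TPM in replicate 2 and 13.7 TPM in replicate 1. Their order was the same in both libraries. Nbr1 had 21 annotated transcripts, and its nonsense-mediated decay transcript Nbr1-208 held 32.7% in replicate 2 and 31% in replicate 1, beside 33.9% in replicate 2 and 41.4% in replicate 1 for the coding Nbr1-206. The coding sequence of Nbr1-208 has 888 codons, and its exons contain 98.0% of the coding bases of Nbr1-206.

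Tethers that join the finished autophagosome to the lysosome were unequal. Tecpr1, which binds the ATG12 and ATG5 conjugate, was at 55.8 TPM in replicate 2 and 46.2 TPM in replicate 1. Epg5, an effector of the small GTPase Rab7, was at 6.58 TPM in replicate 2 and 7.81 TPM in replicate 1. The fold of Tecpr1 over Epg5 was 8.48 in replicate 2 and 5.92 in replicate 1, and their log2 ratios were 0.28 and -0.25.

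Both quantifications gave similar levels for these genes. None of the 40 was 2-fold apart between the alignment-derived and the FASTQ-derived table after both were centred on the median of protein-coding genes, against 0.767% of 10820 such genes. The centred log2 differences ran from -0.57 for Rb1cc1 to 0.38 for Atg2b, with Gabarap at 0.37, and 39 of 40 lay within 0.5. The split of a gene among its transcripts was less alike than its sum. Of the 30 genes at 10 TPM or more, the main coding transcript held 90% or more of TPM, as the mean of both libraries, in 10 in the FASTQ-derived and 13 in the alignment-derived table. It did so in both tables for 9 genes (30%, against 36.2% of 6667 protein-coding genes with a coding transcript), Atg5, Atg101 and Pik3c3 among them. It held under 50% in 7 genes in each table, of which 6 were shared: Becn1, Atg4d, Rb1cc1, Atg4b, Atg7 and Nbr1 (20%, against 14% of protein-coding genes). Uvrag was under 50% in the FASTQ-derived table alone and Ambra1 in the alignment-derived one alone.

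The genes around the core were also present. All 12 further autophagosome genes were detected, with medians of 27.5 TPM in replicate 2 and 30.9 TPM in replicate 1, from Bcl2, which binds Beclin 1, at 1.65 TPM on average to Sh3glb1, a membrane-bending partner of UVRAG, at 251 TPM. Of 16 genes of transcriptional and nutrient control 15 were detected. Tfe3 was the highest of them, at 77.8 TPM in replicate 2 and 116 TPM in replicate 1, and Prkaa2, a catalytic subunit of the energy sensor AMPK, the lowest, at 0.10 TPM in both. All 14 genes of fusion with the lysosome were detected, with medians of 49.3 TPM in replicate 2 and 61.4 TPM in replicate 1, from Stx17, the autophagosomal SNARE, at 9.03 TPM to Lamp1, a lysosomal membrane protein, at 2575 TPM.

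Among 15 other cargo receptors 13 were detected. Ncoa4, the receptor that delivers ferritin to the lysosome, was the highest, at 333 TPM in replicate 2 and 321 TPM in replicate 1, and Calcoco2, known in human cells as NDP52, had 0 counts in both libraries. None of the genes in these 4 lists with at least 20 counts in each library was 2-fold apart, and their median log2 ratios lay between -0.12 and 0.09.

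The Keap1 and Nrf2 axis, to which p62 is linked because it binds Keap1, held 2 genes past 2-fold among its 9, both higher in replicate 2, against 1.94% of all genes with at least 20 counts. Both were under 1 TPM in at least 1 library. Nqo1, a quinone reductase and standard Nrf2 target, was at 3.63 TPM in replicate 2 and 0.89 TPM in replicate 1, a log2 ratio of 2.05 (1.48 to 2.69). Slc7a11, the cystine transporter, was at 0.78 TPM in replicate 2 and 0.36 TPM in replicate 1, a log2 ratio of 1.12 (0.70 to 1.55). Hmox1, which encodes haem oxygenase 1, was the highest of the list and lay on the other side, at 370 TPM in replicate 2 and 538 TPM in replicate 1, with a log2 ratio of -0.50 (-0.53 to -0.47), and the median of the list was 0.13.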

How the data were processed

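RNA-seq of polyadenylated RNA from 2 libraries of 1 group was analysed. Per the deposited notes, reads were quantified on mm10 with GENCODE M21; aligner, quantifier and strand setting were not given in the sources used here. Expected counts and TPM per gene and transcript were made by the authors from a transcriptome alignment, and estimated counts and TPM per transcript from FASTQ files. The authors also made lower and upper bounds on TPM, deposited as signal values with no stated level, per the file headers. These bounds lay over 1.5-fold apart for 3 members a library (Atg9b, Atg16l2 and Wipi1). TPM lay outside them for 7 members in replicate 2 and 4 in replicate 1, with Gabarap, Sqstm1 and Tax1bp1 among those outside in both.

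Levels used alignment-derived gene TPM. Expected counts were rounded and scaled by TMM (edgeR 4.0.16, R 4.3.3); DESeq2 1.42.0 size factors and total counts were alternatives. Ratios added 0.5 counts, needed 20 counts in each library and carry exact (Clopper-Pearson) 95% intervals. Tables and intervals were made in Python 3.11.15 with scipy 1.17.1, pandas 2.3.3 and numpy 2.4.6, and figures with matplotlib 3.10.9. The ratio step was tested on simulated data. Reads can repeat a molecule, so these intervals, and the floors at 0 counts, hold counting error alone. No difference was tested, since each side has 1 library.

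Members and lists were chosen with earlier results of these data known. Named were the highest and lowest gene of each role, all LC3, GABARAP and cargo receptor genes, any gene past 2-fold, the 5 highest noncoding shares, the genes nearest detection and those with a main coding transcript under 50%. Other genes are examples chosen after their values were seen.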

Additional observations from a re-analysis of the deposited data

How the results depend on the processing

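The number of members detected stayed between 38 and 40 under all settings tried, including thresholds of 0.5 and 5 TPM, at least 20 counts, the FASTQ-derived table and each library alone. No member was 2-fold apart between the libraries under DESeq2 size factors, total counts, other count minimums, 5 added counts or the FASTQ-derived table, and the median log2 ratio stayed between -0.04 and -0.02. The median TPM of 18.6 moved to 17.2 in the FASTQ-derived table, and was 17.9 and 19.4 with 1 library left out. The share of Gabarap of 80.8% moved to 75.2% in the FASTQ-derived table and to 69.4% by expected counts (80.5% and 81.1% with 1 library left out). The least stable value was the median noncoding share of 8.07%: it was 3.45% in the alignment-derived transcript table, 3.63% over members at 1 TPM or more and 1.89% by estimated counts, a setting chosen after seeing the data. It was 8.58% without replicate 1 and 3.25% without replicate 2, so replicate 2 decides it. The cause was not tested. Single-gene TPM moved by more than the spread between the libraries for 22 of 40 members in the FASTQ-derived table. These values were not centred, and the median log2 ratio of alignment-derived over FASTQ-derived TPM was 0.18 over protein-coding genes. The 22 therefore include members that follow this shared shift, such as Atg3, with a centred log2 difference of -0.01. No paired analysis was possible because there is only 1 group. With 1 pair of libraries, differences between them cannot be told from variation between cultures, and transcripts under 100 counts are poorly resolved.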
